A study of Drosophila melanogaster with 8 samples.

Results

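The amylase and maltase genes of Drosophila melanogaster encode the enzymes that break starch and maltose down to glucose. The set described here holds 9 named genes, of which 7 have rows in the deposited table (9 of 26309 listed transcripts, 7 of 13656 genes): the amylases Amy-d and Amy-p, the amylase relative Amyrel, the maltases Mal-A1, Mal-A6 and Mal-B1, and the alpha-glucosidase gene tobi. Mal-A7 and Mal-A8 are not analysed here. The genes were chosen by name, from a set drawn up when the TPM of these libraries were already known, among them a higher level of Amy-d in (G4C2)36 than in PA36. That difference and the others of Amy-d that involve the (G4C2)36 libraries are given as descriptions, with no p-value, and nothing is read from their part in the counts of calls.

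RNA was sequenced from heads of female flies aged 5 days that expressed 1 of 4 constructs under Elav, a driver active in neurons. PA36 flies make a proline-alanine dipeptide repeat and are taken as the reference here, PR36 flies make a proline-arginine repeat, (G4C2)36 flies carry the hexanucleotide repeat of C9orf72, and UPF1 RNAi flies have an RNAi construct against the nonsense-mediated decay helicase Upf1. All groups therefore carry the Elav driver and a transgene, and flies without a transgene are not analysed here. The labels give 2 libraries per genotype. Values of both were used for PA36, PR36 and (G4C2)36 but of only 1 for UPF1 RNAi, since the table names 7 of its 8 value columns and the unnamed one, which may be the other UPF1 RNAi library, was not used. The labels give 40 heads in total per genotype without saying whether replicates came from separate cultures, so p-values measure a spread that may be technical. Levels are TPM, by definition transcript abundances corrected for transcript length and scaled to a fixed library total, summed per gene. The depth behind them is unknown. The listed rows did not add to a fixed total, with sums from 712972 (UPF1 RNAi) to 877933 TPM ((G4C2)36 replicate 1), and the main fit did not rescale them.

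In the fly gut, amylase cuts starch into maltose and short oligosaccharides, and maltases, which are alpha-glucosidases, cut these into glucose. Transcription of amylase and of several maltase genes is known to be held down by dietary sugar through the transcription factors Mondo and sugarbabe and the activin-like ligand Dawdle. The gene tobi (target of brain insulin) is known in larvae as a target of the insulin-producing cells and of adipokinetic hormone, the fly counterpart of glucagon.

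The genes lie in a few places of the genome (build BDGP6, 1-based positions from the Ensembl annotation). Amy-p (2R, 17118636 to 17120303, minus strand) and Amy-d (2R, 17124764 to 17126369, plus strand) are neighbours with 4460 bases between them, point away from each other, have 1 exon each and share a coding length of 1482 bases. They are near-identical duplicates, so reads may have been split between them in ways that cannot be checked, and their sum is given beside them. Amyrel (2R, 16651095 to 16652699, minus strand) is a separate relative with 2 exons. Mal-A1 (2R, 8449664 to 8451904, minus strand) and Mal-A6 (2R, 8465158 to 8467595, plus strand) belong to a cluster of 8 Mal-A genes that spans 24298 bases. Mal-B1 (2L, 11847226 to 11849169, plus strand) lies 788 bases before Mal-B2, and tobi (3R, 25344761 to 25346921, minus strand) has 2 exons. Each transcript that the annotation gives for these 7 genes is listed in the deposited table.

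The libraries were not alike in every respect. PA36 replicate 1 and PR36 replicate 1 had high heat shock transcripts, with Hsp70Aa at 1448 and 2020 TPM against 4.93 to 155 TPM in the 5 other libraries. (G4C2)36 replicate 2 had the most yolk protein transcripts, 16.3% of listed TPM against 5.05% to 9.79%. Upf1 stood at 11.3 TPM in UPF1 RNAi and at 10.3 and 19.1 TPM in PA36, so the targeted gene was below 5 of the 6 other libraries but did not set that library apart from PA36.

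The amylases had the largest ratios between the highest and the lowest library, 28.7-fold for Amy-d and 31.9-fold for Amy-p, with tobi next at 19.5-fold. Amy-d stood at 4.24 and 4.47 (PA36), 1.59 and 3.55 (PR36), 26.5 and 45.5 ((G4C2)36) and 19.8 TPM (UPF1 RNAi). The 3 libraries of (G4C2)36 and UPF1 RNAi were thus all above the 4 libraries of PA36 and PR36, and the PR36 libraries were both below the PA36 libraries. In whole heads, fewer cells of a type and less RNA per cell cannot be told apart. Group means were 4.35 ± 0.159 (PA36), 2.57 ± 1.39 (PR36) and 36.0 ± 13.4 TPM ((G4C2)36) (SD, n = 2 each).

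Amy-p, the proximal copy, was lower than Amy-d in every library. It stood in PA36 at 2.71 and 1.88, in PR36 at 0.445 and 1.10, in (G4C2)36 at 4.36 and 14.2 and in UPF1 RNAi at 8.88 TPM. The (G4C2)36 and UPF1 RNAi values again did not overlap those of PA36 and PR36, but the (G4C2)36 replicates differed 3.26-fold between themselves and enclosed the UPF1 RNAi value. Part of that gap was 1 transcript: Amy-p-RB, with the same coding length and a longer annotated transcript (1668 against 1595 bases), was listed at 6.28 TPM in (G4C2)36 replicate 2 and at 0 in the 6 other libraries. The transcript Amy-p-RA alone stood at 4.36 and 7.93 TPM in (G4C2)36.

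Summed, the amylase pair stood at 6.95 and 6.35 (PA36), 2.03 and 4.64 (PR36), 30.9 and 59.7 ((G4C2)36) and 28.7 TPM (UPF1 RNAi). In the sum, as in both genes, the (G4C2)36 and UPF1 RNAi libraries lay above those of PA36, and those of PA36 above those of PR36. The order within these groups differed between the genes. The sum does not depend on how reads were shared between them. Amy-d made up between 61.1% and 85.9% of it, with the lowest share in PA36 replicate 1 and the highest in (G4C2)36 replicate 1.

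The alpha-glucosidase gene tobi had the highest mean of the 7 genes, 23.4 TPM over all libraries. It stood in PA36 at 9.20 and 22.0, in PR36 at 3.37 and 6.51, in (G4C2)36 at 30.01 and 65.7 and in UPF1 RNAi at 26.99 TPM. As for the amylases, the PR36 libraries were the lowest and (G4C2)36 replicate 2 the highest. The (G4C2)36 and UPF1 RNAi values did not overlap those of PA36 and PR36. The share of all genes whose libraries split this way was not counted. Nothing is therefore read from these splits, those of the amylases included. The spread within PA36 was wide, since its replicates differed 2.39-fold and the higher lay close to UPF1 RNAi.

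**Figure D1:**
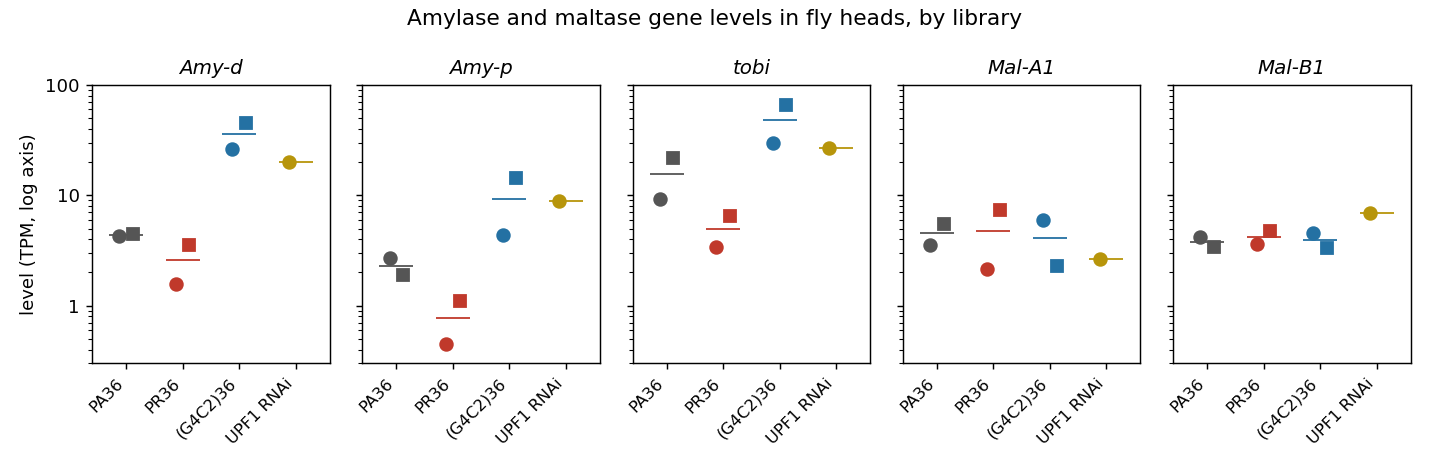
TPM on a log axis of the 5 tested members, by genotype. Circles are replicate 1, squares replicate 2 and lines the mean of a genotype (UPF1 RNAi has 1 library). Amy-d, Amy-p and tobi were lowest in PR36 and higher in (G4C2)36 and UPF1 RNAi than in PA36, while Mal-A1 and Mal-B1 stayed between 2.16 and 7.30 TPM.

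The maltase members did not share this order. Mal-A1 stood at 3.54 and 5.51 (PA36), 2.16 and 7.30 (PR36), 5.95 and 2.31 ((G4C2)36) and 2.67 TPM (UPF1 RNAi). Its lowest and highest libraries were both PR36, so the spread within that genotype covered every other library. Mal-B1 was the steadiest, in PA36 at 4.201 and 3.40, in PR36 at 3.62 and 4.74, in (G4C2)36 at 4.58 and 3.30 and in UPF1 RNAi at 6.94 TPM, where the single library was above the 6 others.

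Mal-A6 and Amyrel were close to the bottom of the table. Mal-A6 was listed at 1.31 TPM in PA36 replicate 1, 0.964 TPM in (G4C2)36 replicate 2 and 1.25 TPM in UPF1 RNAi, and at 0 in the 4 other libraries. Amyrel was listed at 0.303 TPM in PA36 replicate 2, 0.361 TPM in PR36 replicate 1 and 0.207 TPM in (G4C2)36 replicate 1, and at 0 elsewhere. For each gene, the zeros fell on more than 1 genotype, and an exact 0 in TPM can be a failed estimate. Both fell short of a mean of 1 TPM (0.503 and 0.124) and were not tested, while the lowest mean among the 5 tested members was 4.21 TPM, of Mal-A1.

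Across libraries, Amy-d ranged over 4.17 on the log2(TPM + 1) scale, a range that 1.60% of the 9287 genes tested reached or passed. The range was 3.93 for tobi (1.98% of genes) and 3.40 for Amy-p (3.23%), against 1.39 for Mal-A1 (17.5%) and 0.88 for Mal-B1 (36.1%). The range of Amy-d includes the high (G4C2)36 values known when the set was drawn up, so these ranges are a description.

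PR36 was first set against PA36, as a repeat with arginine against one without it. Both amylases and tobi were lower in every PR36 library than in any PA36 library, but no member passed. The share of all genes that separate in this way was not counted, so nothing is read from the separation. The log2 fold changes were -0.64 for Amy-d (SE 0.37, limma adjusted p = 0.996), -0.91 for Amy-p (SE 0.52, adjusted p = 0.996) and -1.42 for tobi (SE 0.52, adjusted p = 0.996). Mal-A1 differed by -0.09 (SE 0.56) and Mal-B1 by 0.11 (SE 0.30), both at an adjusted p of 0.996, and the first turned positive without PA36 replicate 2 or PR36 replicate 1, the second negative without PA36 replicate 2 or PR36 replicate 2. In all, limma called 0 of 5 members, against 0.194% of all genes. An unadjusted p below 0.05 was found for 1 member (tobi) and for 315 of the 9287 genes tested. The median of the 5 was -0.64, against 0.13 over all genes. It was -0.24 without PR36 replicate 1 and -1.05 without PR36 replicate 2, being the value of Amy-d in each case. The difference of tobi was -0.83 without PA36 replicate 2 and -2.005 without PA36 replicate 1.

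In (G4C2)36 against PA36 the amylases and tobi were higher. Amy-d differed by 2.74 on the log2 scale (SE 0.37), the difference known when the set was drawn up. Amy-p differed by 1.47 (SE 0.52, limma adjusted p = 0.623) and tobi by 1.57 (SE 0.52, adjusted p = 0.561), neither of which passed. Mal-A1 (-0.18, SE 0.56, adjusted p = 0.970) and Mal-B1 (0.03, SE 0.30, adjusted p = 0.991) lay near 0. The threshold of adjusted p below 0.05 was passed by 1 of 5 members, beside 0.388% of all genes. That member is Amy-d, whose difference was known when the set was drawn up, so the count is no support for it. It was 0 without PA36 replicate 1, PA36 replicate 2, (G4C2)36 replicate 1 or (G4C2)36 replicate 2. Single libraries also moved the other values. Amy-p differed by 0.71 without (G4C2)36 replicate 2 and by 2.22 without (G4C2)36 replicate 1, and tobi by 0.98 without PA36 replicate 1, by 2.16 without PA36 replicate 2 and by 1.02 without (G4C2)36 replicate 2. The median of the 5 members was 1.47, the value of Amy-p, against 0.13 over all genes, and these were 0.71 and 0.31 without (G4C2)36 replicate 2. Amy-d and its near-identical duplicate Amy-p are both among the 5, so these medians are descriptions from which nothing is read. Without PA36 replicate 1 the median of the members was 0.98.

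UPF1 RNAi against PA36 rests on 1 library, whose spread is taken to be that of the other genotypes. Amy-d differed by 1.96 (SE 0.45, limma adjusted p = 0.232), Amy-p by 1.60 (SE 0.63, adjusted p = 0.738) and tobi by 0.87 (SE 0.63, adjusted p = 0.958). Mal-B1 was also higher, by 0.73 (SE 0.37, adjusted p = 0.854), and Mal-A1 was lower, by -0.57 (SE 0.68, adjusted p = 0.958). None passed: limma called 0 of 5 members, against 0.625% of all genes. An unadjusted p below 0.05 was found for 2 members and for 594 of the 9287 genes tested. The difference of tobi was 0.28 without PA36 replicate 1 and 1.46 without PA36 replicate 2. The median of the 5 was 0.87, against 0.10 over all genes, and 1.41 without PA36 replicate 2. The comparisons with PA36 share its libraries, so their directions are not independent of one another. Rescaling by the median of ratios brought the median over all genes to 0.01, 0.01 and 0.02 in the order given and kept the sign of each member but Mal-B1, which turned to -0.07 in (G4C2)36.

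**Figure D2:**
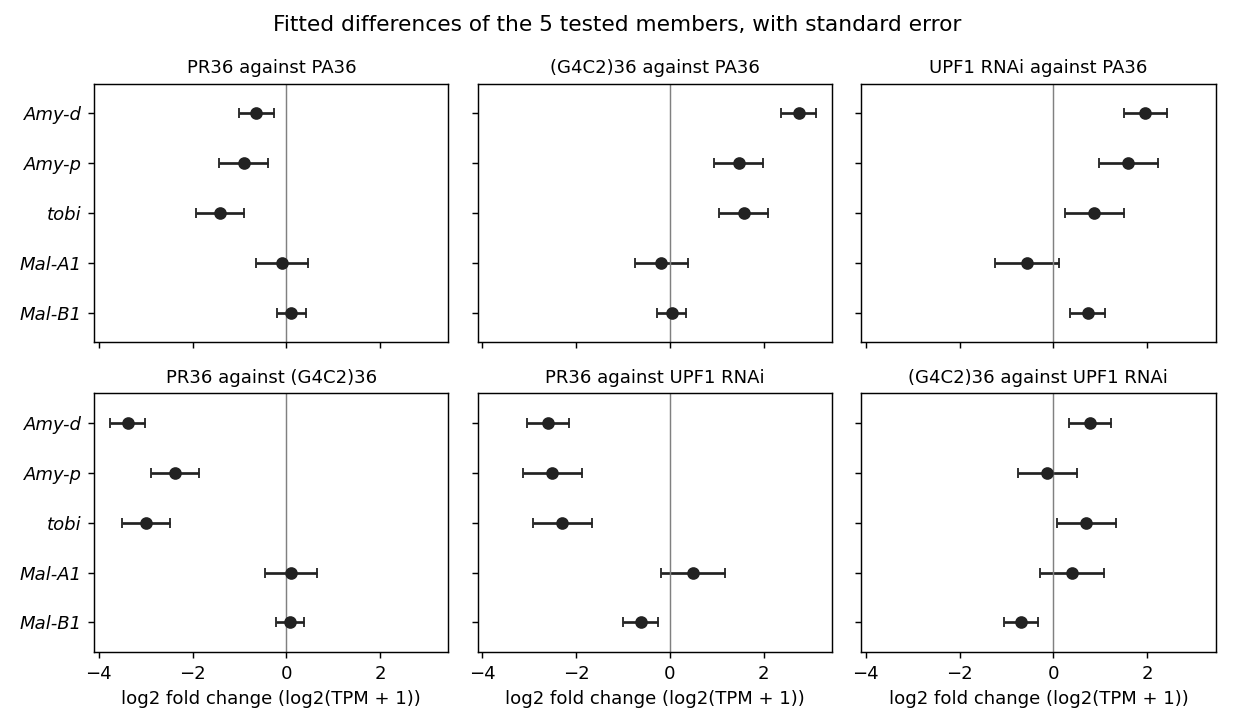
Log2 fold changes on the log2(TPM + 1) scale of the 5 tested members in 6 comparisons, from the fit over all genes. Points are estimates and bars 1 standard error. Amy-d, Amy-p and tobi lie left of 0 in the 3 comparisons of PR36, between -0.64 and -3.38, and Mal-A1 and Mal-B1 lie within 1 of 0 in all 6.

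For the amylases and tobi, the differences between the other genotypes were largest where PR36 was one side. PR36 against (G4C2)36 gave -3.38 for Amy-d (SE 0.37), -2.99 for tobi (SE 0.52, limma adjusted p = 0.131) and -2.37 for Amy-p (SE 0.52, adjusted p = 0.297). The value of tobi did not pass in the full fit. Over 14 alternatives it ranged from -3.54 to -2.44 and passed in 5. These were the fits without PA36 replicate 1, PA36 replicate 2 or PR36 replicate 2 (-3.38, with 1 PR36 library left), and 2 others. Of the others, the fit without both libraries high in heat shock genes was added after the data were seen and keeps 1 PR36 library. The other took the replicate number as a block, although the numbers do not pair the libraries. Mal-A1 (0.09, SE 0.56) and Mal-B1 (0.07, SE 0.30) stood at an adjusted p of 1. The threshold was passed by 1 of 5 members, beside 0.237% of all genes. It is Amy-d again, with the (G4C2)36 values known beforehand, so nothing is read from the count. The median of the 5 was -2.37, the value of Amy-p, against 0.00 over all genes. It is a description too, since Amy-d and its near-identical duplicate Amy-p are both among the 5. Without either (G4C2)36 library the count was 0, and without PA36 replicate 1, PA36 replicate 2 or PR36 replicate 2 it was 2, as tobi joined.

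PR36 against UPF1 RNAi had the same shape. Amy-d stood at 1.59 and 3.55 TPM in PR36 against 19.8 TPM, or -2.60 on the log2 scale (SE 0.45, limma adjusted p = 0.0927). Amy-p differed by -2.50 (SE 0.63, adjusted p = 0.307), tobi by -2.29 (SE 0.63, adjusted p = 0.387), Mal-B1 by -0.62 (SE 0.37, adjusted p = 1) and Mal-A1 by 0.48 (SE 0.68, adjusted p = 1). The summed amylases differed by -2.84 (SE 0.49, adjusted p = 0.0921). None of the 5 members was called by limma, against 0.431% of all genes. An unadjusted p below 0.05 was found for 3 of them and for 569 of the 9287 genes tested. Without PR36 replicate 2 Amy-d passed (-3.01, adjusted p = 0.0295), in a fit that sets 1 library against 1 and takes their spread from the other genotypes. Its adjusted p ranged from 0.013 to 0.22 over 13 alternatives.

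(G4C2)36 and UPF1 RNAi, both above PA36 for the amylases and tobi, were last set against each other. Amy-d differed by 0.78 (SE 0.45), Amy-p by -0.13 (SE 0.63, limma adjusted p = 1) and tobi by 0.70 (SE 0.63, adjusted p = 1). Mal-B1 differed by -0.70 (SE 0.37, adjusted p = 0.856) and Mal-A1 by 0.39 (SE 0.68, adjusted p = 1). Without (G4C2)36 replicate 2, Amy-d differed by 0.40, tobi by 0.15 and Amy-p by -0.88, and without (G4C2)36 replicate 1 by 1.16, 1.25 and 0.62. Limma called 0 of 5, against 0.581% of all genes. An unadjusted p below 0.05 was found for 0 members and for 696 of the 9287 genes tested. Ordered by mean, Amy-d and tobi went from PR36 through PA36 and UPF1 RNAi to (G4C2)36, and limma called neither gene between PR36 and PA36 or between PA36 and UPF1 RNAi, nor tobi between UPF1 RNAi and (G4C2)36.

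The amylases and tobi also differed in the same direction between replicates of PR36 and of (G4C2)36. Between the PR36 replicates, the amylase sum differed 2.29-fold and tobi 1.93-fold, and between the (G4C2)36 replicates 1.93-fold and 2.19-fold. In PA36 they did not, as tobi differed 2.39-fold and the amylase sum 1.09-fold, in opposite directions. The likeness of profiles was measured as the root-mean-square difference of log2(TPM + 1) after centring over the 7 libraries. Between tobi and the amylase sum it was 0.54, where a flat profile would stand at 1.47 from the amylases and at 1.26 from tobi. Of the 7733 other genes that averaged 5 TPM or more, none was closer to the amylase sum, and none was closer to tobi. These are descriptions over libraries in which the set had already been seen.

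The nearest genes outside the set were at a larger distance. For the amylase sum they were rempA (0.57), which encodes a component of intraflagellar transport, CG3513 (0.68) and CG1544 (0.69). The gene rempA was listed at 0 in PA36 replicate 1 and PR36 replicate 1, and reached 7.38 and 12.2 TPM in the (G4C2)36 libraries and 14.0 TPM under UPF1 RNAi. In PA36 and PR36 it was at most 1.21 TPM, so it averaged 5 TPM only through the libraries where the amylases were high. Its nearness is therefore a description, and an exact 0 can be a failed estimate. For tobi the nearest were CG1544 (0.61), CG18547 (0.62) and cac (0.62), the calcium channel of presynaptic terminals. CG1544 reached 15.9 and 14.0 TPM in the (G4C2)36 libraries and 21.3 TPM under UPF1 RNAi, against 4.29 and 7.28 (PA36) and 1.57 and 5.15 TPM (PR36).

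**Figure D3:**
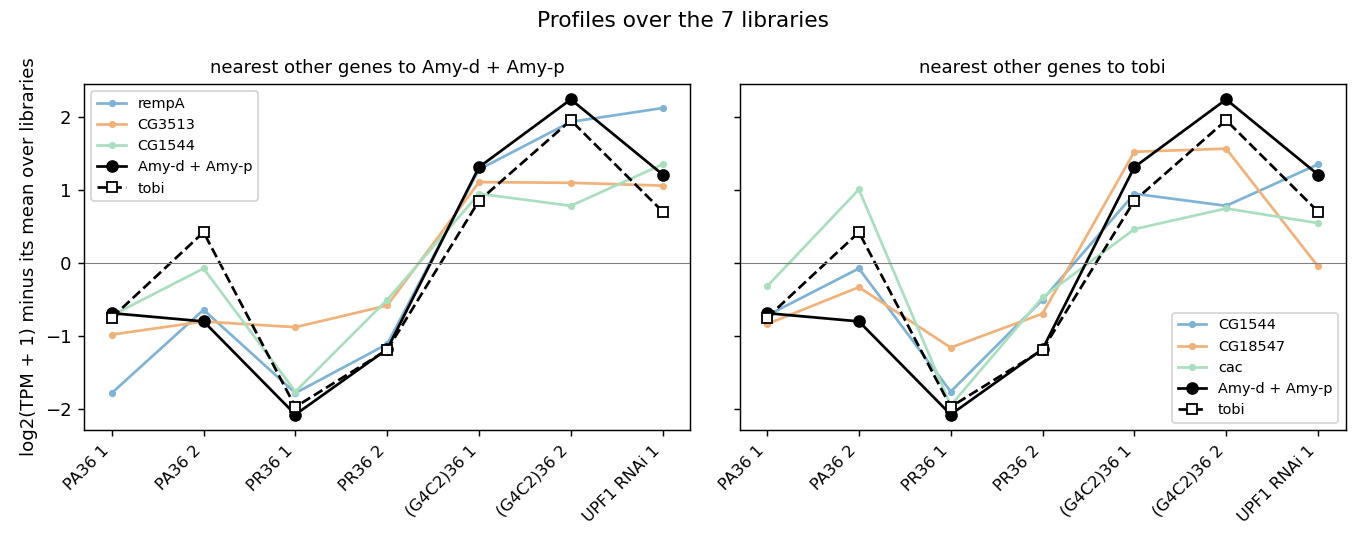
Log2(TPM + 1) minus its mean over the 7 libraries, for the summed amylases (black circles), tobi (open squares) and the 3 nearest genes outside the set to each. The amylases and tobi run together from PR36, where both are about 2 below their mean in replicate 1, to about 2 above it in (G4C2)36 replicate 2, and part in PA36 replicate 2.

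Other maltases of the same family were higher and steadier. Mal-B2, next to Mal-B1, stood at 79.9 and 90.0 (PA36), 120.1 and 93.4 (PR36), 109.2 and 147.6 ((G4C2)36) and 125.0 TPM (UPF1 RNAi). Mal-A5, 65 bases before Mal-A6 on the same strand, ranged from 53.9 to 83.0 TPM. Their means, 109 and 70.5 TPM, are above those of all 7 members, and their highest library was 1.85-fold and 1.54-fold the lowest. Mal-A2 was listed at 0 in 6 libraries and at 0.119 TPM in (G4C2)36 replicate 1. Limma called 0 of the 2 tested genes (Mal-A5 and Mal-B2) in each of the 6 comparisons, and 1 of them, Mal-B2 in (G4C2)36 against PA36, had an unadjusted p below 0.05 (0.58, SE 0.24, adjusted p = 0.717).

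Markers of midgut digestive cells were near 0 in every library. Of 30 trypsins, Jonah proteases, lysozymes and the lipase magro, 17 have rows, none reached a mean of 1 TPM, and their sum lay between 1.99 and 2.67 TPM. The sum was 2.40 and 2.17 (PA36), 2.67 and 2.48 (PR36), 2.20 and 1.99 ((G4C2)36) and 2.43 TPM (UPF1 RNAi). It is made of values near the floor, so its order over libraries is not read. The part of gut tissue in the amylase levels was not tested. The trypsin gene betaTry was listed at 0 in 5 of 7 libraries. Salivary gland markers (sage, fkh and LysP) summed to between 13.7 and 24.4 TPM, lowest in (G4C2)36 replicate 2 and highest in UPF1 RNAi.

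Head fat body markers varied more. Of 9 such genes, 8 have rows, and they summed to between 39732 and 128365 TPM, with the highest sum in (G4C2)36 replicate 2. Most of that sum was yolk protein transcripts, with Yp1, Yp2 and Yp3 at 44912, 35040 and 45253 TPM. These and Lsp2 were higher in (G4C2)36 replicate 2 than in replicate 1, as Amy-d, Amy-p and tobi were. The markers apolpp, FASN1, bmm and to were lower there than in replicate 1. Lsp2, a storage protein of the fat body, stood in PA36 at 26.4 and 25.9, in PR36 at 23.5 and 77.8, in (G4C2)36 at 224 and 1425 and in UPF1 RNAi at 0.931 TPM. In UPF1 RNAi it was at its lowest, while the amylases and tobi were above PA36. Its level was higher in (G4C2)36 than in UPF1 RNAi (log2 fold change 8.20, SE 1.05, limma adjusted p = 0.0244). Without (G4C2)36 replicate 2 this difference was 6.86 and no longer passed (adjusted p = 0.0748), nor did it with no filter on low values, median-of-ratios rescaling or robust moderation (adjusted p of 0.137, 0.126 and 0.324). The lipoprotein gene apolpp, also of the fat body, stood in PA36 at 949 and 943, in PR36 at 339 and 149, in (G4C2)36 at 1397 and 1033 and in UPF1 RNAi at 1919 TPM. Like the amylases it was lowest in PR36, and its adjusted p was 0.0535 or more in the 6 comparisons. The part of the fat body in the amylase levels was not tested. Markers of neurons (945 to 1330 TPM) and of photoreceptors (32914 to 45305 TPM) were high in sum in every library. Not each neuronal marker was. The gene para stood at 12.0 TPM in PR36 replicate 2 and 9.39 TPM in UPF1 RNAi but at 0.143 to 0.672 TPM elsewhere. The gene brp stood at 0.134 TPM in PR36 replicate 1 and at 8.32 to 18.9 TPM elsewhere.

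**Figure D4:**
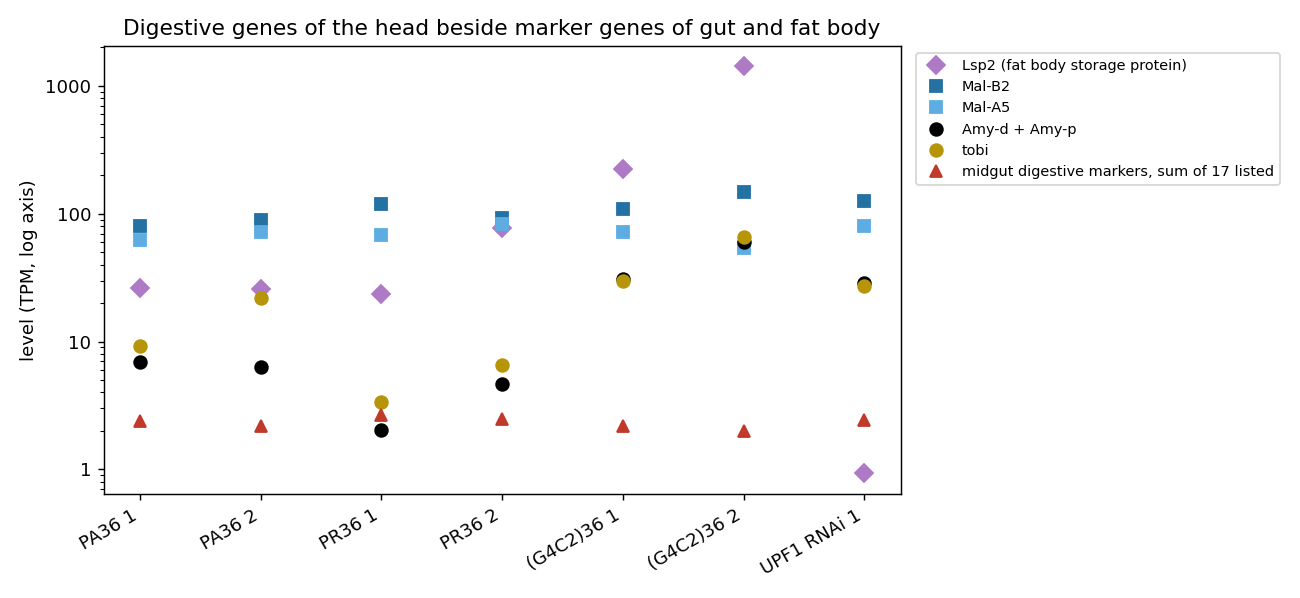
TPM on a log axis, in each of the 7 libraries, of the amylase sum, tobi, the maltases Mal-A5 and Mal-B2, the fat body storage gene Lsp2 and the sum of 17 midgut digestive markers. The midgut markers stay between 1.99 and 2.67 TPM while the amylase sum runs from 2.03 to 59.7 TPM, and Lsp2 is highest in (G4C2)36 replicate 2 and lowest in UPF1 RNAi.

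The wider sugar pathway was read from 6 lists of 54 genes that hold no member, of which 46 have rows and 41 were tested. Limma called 0 of the 41 in each of the 6 comparisons, while unadjusted p-values below 0.05 numbered 1, 4 and 5 in the comparisons of PR36, (G4C2)36 and UPF1 RNAi with PA36, 4 in PR36 against (G4C2)36, 2 in PR36 against UPF1 RNAi and 10 in (G4C2)36 against UPF1 RNAi. Over all 9287 genes tested, such unadjusted p-values numbered 315, 627, 594, 488, 569 and 696 in the same order. None of the 8 sugar-sensing regulators passed in any comparison. Sugarbabe (sug), the zinc finger factor that represses amylase, stood at 281 and 105 (PA36), 219 and 95.6 (PR36), 187 and 141 ((G4C2)36) and 71.2 TPM (UPF1 RNAi). Its highest values were in the PA36 and PR36 libraries with high heat shock transcripts, and UPF1 RNAi was the lowest. Dawdle (daw) stood in PA36 at 78.1 and 66.3, in PR36 at 76.8 and 53.9, in (G4C2)36 at 71.1 and 40.8 and in UPF1 RNAi at 44.4 TPM. The UPF1 RNAi value lay below all PA36 and PR36 libraries and within those of (G4C2)36. These genes do not stand for the whole list. Mondo was at 25.8 TPM in UPF1 RNAi, within PA36 (23.8 and 33.5 TPM), and Smox was at its highest there, at 97.2 TPM. Of the 8, 2 were above 0 in UPF1 RNAi against PA36, with a median of -0.24, against 0.10 over all genes.

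Among 10 tested hormones and receptors, none passed. Ilp5, an insulin-like peptide of the brain's insulin-producing cells, stood at 40.0 and 30.2 (PA36), 44.5 and 38.1 (PR36), 64.7 and 96.5 ((G4C2)36) and 35.7 TPM (UPF1 RNAi). It was highest in (G4C2)36, as the amylases were, but in UPF1 RNAi it lay within PA36 (log2 fold change in (G4C2)36 against PA36 1.16, SE 0.27, limma adjusted p = 0.276). Ilp3 stood at 49.7 and 39.8 (PA36), 27.9 and 26.0 (PR36), 41.5 and 51.9 ((G4C2)36) and 24.5 TPM (UPF1 RNAi). It was lower than in PA36 both in PR36 (-0.70, SE 0.23, adjusted p = 0.996) and in UPF1 RNAi (-0.84, SE 0.28). Its lowest library was thus UPF1 RNAi, where tobi stood above PA36. CCHa2, a fat body and gut peptide that responds to nutrients, was at 39.6 TPM under UPF1 RNAi, where PA36 had 108 and 105 TPM (-1.40, SE 0.25, adjusted p = 0.0878). The transcript of Akh itself, made in the corpora cardiaca, was at most 0.479 TPM.

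In (G4C2)36, the genes of sugar use stood above PA36 without passing. All 11 tested glycolysis genes were above 0 in (G4C2)36 against PA36 with a median of 0.40, and all 6 of glycogen and trehalose metabolism with a median of 0.39, against 0.13 over all genes. Since that last median is itself above 0 and the share of all genes above 0 was not counted, such counts are descriptions. Tps1 (0.08) and Treh (0.10), of the glycogen and trehalose list, lay below it. The glycogen phosphorylase gene GlyP stood at 645 and 491 TPM against 378 and 406 TPM (0.52, SE 0.21, limma adjusted p = 0.690), and Gapdh2 at 1295 and 1044 TPM against 872 and 777 TPM (0.50, SE 0.20, adjusted p = 0.704). In PR36 against PA36, 8 of 11 glycolysis genes were above 0 with a median of 0.16, and in UPF1 RNAi 5 of 11 with a median of -0.05. For sugar transporters the medians over 4 tested genes relative to PA36 were 0.14 (PR36), 0.14 ((G4C2)36) and 0.27 (UPF1 RNAi).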

How the data were processed

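The authors deposited 1 table of TPM per transcript. Per the submitters' processing notes, bcl2fastq, HISAT2 2.1 and HISAT were used with the build BDGP6. How the TPM were made, and with which annotation and strand setting, is not given in the sources used. The header has 10 names and each line 11 cells, so names were matched to cells starting at the left. This yields 7 named libraries and leaves 1 unnamed value column, which is not used. All assignments of values to libraries rest on this reading. TPM keep no depth, so no counting intervals are given.

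TPM were summed per gene. The 9287 genes averaging 1 TPM or more were fitted as log2(TPM + 1) with limma 3.58.1 in R 4.3.3, 1 coefficient per genotype, moderation with a trend, two-sided, and Benjamini-Hochberg adjustment over all genes. Calls have an adjusted p below 0.05. Low genes have understated fold changes on this scale. The sum of Amy-d and Amy-p was fitted in a run in which it replaced both genes. The design was written for 8 libraries and fitted on 7. The model was tested on simulated data. Joins and figures used Python 3.11.15, pandas 2.3.3, numpy 2.4.6 and matplotlib 3.10.9.

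The members and lists were chosen with earlier results of these data known. All members are named. Of the lists, up to 3 genes called in a comparison are named by rule, and further examples, markers included, were picked with their values in view. For likeness, the 3 nearest genes outside the set are named. Alternatives were a pseudocount of 0.1, no filter, median-of-ratios rescaling, limma's trend and robust options, the replicate number as a block, transcripts in place of genes, and each library left out in turn. A fit leaving out replicate 1 of PA36 and of PR36, the libraries high in heat shock genes, was added after the data were seen.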

Additional observations from a re-analysis of the deposited data

How the results depend on the processing

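Depth is unknown, and values of at most 2 libraries per genotype, and of 1 for UPF1 RNAi, were used, so how firmly a call holds is limited by the number of libraries. The number of members called in (G4C2)36 against PA36 (1 in the full fit) was 0 with a pseudocount of 0.1, with no filter on low values, with median-of-ratios rescaling, with no trend and with listed transcripts, and 0 to 1 with a library left out. In PR36 against (G4C2)36 (also 1) it was 0 with no filter, median-of-ratios rescaling and listed transcripts, 3 without both libraries high in heat shock genes, and 0 to 2 with a library left out. In PR36 against UPF1 RNAi (0) it was 1 with robust moderation, 2 without both libraries high in heat shock genes, and 0 to 1 with a library left out. In the other 3 comparisons the count was 0 in every alternative run, and those with UPF1 RNAi have no value without its library. The cause was not tested. Without both libraries high in heat shock genes, PA36, PR36 and UPF1 RNAi keep 1 library each and the spread comes from the (G4C2)36 libraries alone. That fit called 2.64% of all genes in PR36 against (G4C2)36 and 2.81% in PR36 against UPF1 RNAi, where the full fit called 0.237% and 0.431%.

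With the replicate number as a replicate block, the count was 2 in PR36 against (G4C2)36 and 2 in PR36 against UPF1 RNAi (Amy-d and tobi), and 0.474% and 0.603% of all genes were called. The numbers do not pair the libraries: correlations over 9287 genes of the deviations of replicate 1 from its group mean were 0.097, -0.074 and -0.077. No call is therefore read from the blocked fit. It remains 1 of the alternatives in the ranges and counts given over them, here and above.

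Over 36 log2 fold changes and up to 14 alternatives (486 values), 430 kept direction and side of the threshold, 22 came to pass, 17 no longer passed and 17 changed sign. No sign of Amy-d, of the amylase sum or of tobi changed. Mal-B1 in (G4C2)36 against PA36 went to -0.073 with median-of-ratios rescaling, and Mal-A1 in PR36 against PA36 to 0.35 without both libraries high in heat shock genes. With a library left out, values that changed sign ranged as follows. In PR36 against PA36, Mal-A1 ran from -0.78 to 0.61 and Mal-B1 from -0.049 to 0.26. In (G4C2)36 against PA36, Mal-A1 ran from -0.72 to 0.35 and Mal-B1 from -0.15 to 0.22. In PR36 against (G4C2)36, Mal-A1 ran from -0.60 to 0.79 and Mal-B1 from -0.12 to 0.26. Mal-A1 ran from -0.21 to 1.18 in PR36 against UPF1 RNAi and from -0.15 to 0.92 in (G4C2)36 against UPF1 RNAi, where Amy-p ran from -0.88 to 0.62.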

Other observations

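The maltase gene Mal-A5, a neighbour of Mal-A6, was steady as a gene but not in its transcripts, a difference chosen after its values were seen. Mal-A5-RB, with 5 exons and a coding length of 1602 bases, stood in PA36 at 16.0 and 20.3, in PR36 at 4.43 and 4.72, in (G4C2)36 at 17.02 and 12.6 and in UPF1 RNAi at 0.180 TPM. Mal-A5-RA, with 6 exons and a coding length of 1890 bases, stood at 46.8 and 51.3 (PA36), 62.9 and 77.6 (PR36), 53.9 and 40.9 ((G4C2)36) and 80.7 TPM (UPF1 RNAi). Between genotypes, Mal-A5-RB was lower and Mal-A5-RA higher in PR36 and UPF1 RNAi than in PA36 and (G4C2)36. Within PA36, PR36 and (G4C2)36, both transcripts were higher in the same replicate. The gene's sum stayed between 53.9 and 83.0 TPM. In a fit over 15794 listed transcripts, Mal-A5-RB was lower in UPF1 RNAi than in PA36 (log2 fold change -4.01, SE 0.34, limma adjusted p = 0.0231, with 0.639% of transcripts called) and higher in (G4C2)36 than in UPF1 RNAi (3.73, SE 0.34, adjusted p = 0.0218, with 0.772% called). In PR36 against PA36 it did not pass (-1.77, SE 0.28, adjusted p = 0.195). With a pseudocount of 0.1 in place of 1, the difference in UPF1 RNAi was -6.01 (adjusted p = 0.0112), and PR36 against UPF1 RNAi went from 2.24 (adjusted p = 0.0991) to 4.06 (adjusted p = 0.0278). Both calls rest on 1 UPF1 RNAi library and were lost when any 1 of the 6 other libraries was left out. The adjusted p then lay between 0.0645 and 0.108 for UPF1 RNAi against PA36, with differences from -4.17 to -3.85, and between 0.0642 and 0.0872 for (G4C2)36 against UPF1 RNAi. Mal-A5-RA did not pass in UPF1 RNAi against PA36 (0.71, SE 0.26, adjusted p = 0.699).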
